A study of Mus musculus with 16 samples.

Results

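Genes of the cell cycle and of DNA replication were followed across the ovaries of mice lacking one or both estrogen receptors. The set held 48 genes, taken by symbol from a list chosen with earlier results of these data known. There were 8 G1 cyclins and their kinases and 5 inhibitors of cyclin-dependent kinases (Cdks). The others were 14 genes of S phase and replication and 21 genes of G2 and M phase. Each gene was read by its brightest probe, and all 48 were among the 24366 features tested. Every one of the 48 was well above background on all 16 arrays and none was saturated, so no level here is a bound.

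The arrays measured total RNA of the whole ovary at an age of 1 year, with 4 arrays in each of 4 groups. Ex3aERKO ovaries lacked estrogen receptor α (ERα), Ex3bERKO ovaries lacked ERβ, Ex3abERKO ovaries lacked both, and control ovaries kept one allele of each receptor. The control animals therefore did not carry the full receptor gene dose either. The study asked what the 2 receptors do when granulosa cells, the cells that surround the oocyte, turn toward another cell type in aged ovaries. Strain and Cre driver are not in the labels, and neither is whether each sample of a group was a different animal. The p-values therefore refer to the variation among these samples, part or all of which may be technical.

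Cells that divide pass through G1, copy their DNA in S phase, and separate the copies in M phase after a further gap, G2. D and E type cyclins with Cdk4, Cdk6 and Cdk2 start the cycle, and the proteins p21, p27, p57, p16 and p18 hold it back. Genes of S phase are switched on mainly by E2F factors, and those of G2 and M phase largely through the CHR, a promoter element bound by the DREAM and MMB-FOXM1 complexes and often found near CCAAT boxes bound by NF-Y. In the ovary the granulosa cells of growing follicles are the main dividing cells, whereas luteal cells and oocytes of adult females do not divide mitotically.

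Promoter sequences from RefSeq (GRCm38.p6), running from 250 bases before to 50 bases after a gene's start, were matched for 37 of the 48 genes. Of the 5 shown here, Top2a, Bub1b and Plk1 are M phase genes that fell in Ex3abERKO ovaries, Mcm7 is a replication gene that fell there, and Cdkn1b is the one gene called in the interaction of both losses. Where the table lists 2 starts, as for Mcm7, the first is shown. Capitals mark 3 kinds of element, searched on both strands. The CHR was taken as the letters TTTGAA, and its variant spelling TTCGAA was counted with it. The box bound by NF-Y was taken as CCAAT, and the E2F element was taken as TTTCCCGC, TTTGGCGC or TTTCGCGC. In Mcm7 an E2F element and a CCAAT box share a base.
Top2a, chr11:99024140-99024439, minus strand: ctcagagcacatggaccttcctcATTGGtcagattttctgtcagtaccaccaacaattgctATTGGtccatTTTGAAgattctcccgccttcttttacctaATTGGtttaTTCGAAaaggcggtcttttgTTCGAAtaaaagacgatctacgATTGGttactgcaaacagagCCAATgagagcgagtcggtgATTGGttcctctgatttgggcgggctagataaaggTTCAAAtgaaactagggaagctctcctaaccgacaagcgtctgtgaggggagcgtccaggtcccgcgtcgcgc
Bub1b, chr2:118597961-118598260, plus strand: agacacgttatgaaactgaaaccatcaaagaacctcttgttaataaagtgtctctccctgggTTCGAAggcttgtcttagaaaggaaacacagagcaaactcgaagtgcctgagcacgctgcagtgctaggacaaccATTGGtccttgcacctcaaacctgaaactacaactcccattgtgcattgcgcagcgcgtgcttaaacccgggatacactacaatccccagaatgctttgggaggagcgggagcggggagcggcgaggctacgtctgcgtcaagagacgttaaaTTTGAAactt
Plk1, chr7:122159185-122159484, plus strand: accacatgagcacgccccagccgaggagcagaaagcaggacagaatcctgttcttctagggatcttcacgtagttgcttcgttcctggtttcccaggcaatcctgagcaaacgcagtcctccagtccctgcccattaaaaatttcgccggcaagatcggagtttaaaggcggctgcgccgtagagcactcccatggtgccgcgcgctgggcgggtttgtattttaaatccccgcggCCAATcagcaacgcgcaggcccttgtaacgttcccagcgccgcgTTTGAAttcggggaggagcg
Mcm7, chr5:138171834-138172133, minus strand: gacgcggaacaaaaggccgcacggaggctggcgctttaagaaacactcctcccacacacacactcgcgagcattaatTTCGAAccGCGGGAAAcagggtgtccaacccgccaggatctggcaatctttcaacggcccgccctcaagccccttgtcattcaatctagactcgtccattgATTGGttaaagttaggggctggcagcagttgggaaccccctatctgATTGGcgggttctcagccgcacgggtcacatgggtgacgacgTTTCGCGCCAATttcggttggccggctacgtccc
Cdkn1b, chr6:134920151-134920450, plus strand: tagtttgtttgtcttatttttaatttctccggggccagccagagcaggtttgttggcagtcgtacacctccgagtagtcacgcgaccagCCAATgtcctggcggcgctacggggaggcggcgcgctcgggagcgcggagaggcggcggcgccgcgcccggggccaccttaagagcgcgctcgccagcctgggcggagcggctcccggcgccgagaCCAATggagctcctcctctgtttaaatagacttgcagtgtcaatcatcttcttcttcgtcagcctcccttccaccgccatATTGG

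A CHR element stood in the promoters of 12 of the 16 matched G2 and M phase genes, 2 of 12 S phase genes, 0 of 5 G1 genes and 0 of 4 inhibitors, against 21.66% of the 27025 genes in the table, counting a gene where any of its starts held the element. All 12 of those M phase promoters also held a CCAAT box, a pair found for 8.61% of all genes. E2F elements were found in 6 of 12 S phase promoters and 1 of 16 M phase promoters, against 2.12% of all genes. CCAAT boxes, with or without a CHR, were in 14 of 16 M phase promoters and 8 of 12 S phase promoters, against 41.06% of all genes. Over the 32851 single promoters the shares were 19.23% for the CHR, 37.41% for the CCAAT box, 1.84% for E2F and 7.52% for the pair. Among the matched M phase genes, 8 of 12 with a CHR and 3 of 4 without one were called lower in Ex3abERKO ovaries than in control ovaries (medians of -1.22 and -1.10). In Ex3aERKO ovaries 0 of 12 with a CHR and 3 of 4 without one were called lower (medians of -0.96 and -1.24). Of all features 11.7% were called lower in Ex3abERKO and 4.2% in Ex3aERKO ovaries. The 12 genes with a CHR ranged from -1.24 to -0.70 in Ex3aERKO ovaries, so their 0 calls do not show that they were unchanged. A match gives letters in a window and says nothing on whether a factor was bound.

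Signal was similar across arrays, with a 75th percentile of 1211 to 1806 and 80.4% to 87.6% of spots well above background. The arrays lay on 4 slides, each of them holding at least 3 of the groups. Esr1, which encodes ERα, was lower in Ex3aERKO ovaries (log2 difference ± standard error of -2.38 ± 0.38, adjusted p = 0.00175 in limma) and in Ex3abERKO ovaries (-1.63 ± 0.38, adjusted p = 0.00652) than in control ovaries. Esr2, which encodes ERβ, was lower in Ex3abERKO ovaries (-1.97 ± 0.51, adjusted p = 0.0131) but not in the arrays labelled Ex3bERKO (0.43 ± 0.51, adjusted p = 0.913), and whether its probe lies inside the deleted part is not given in the sources used here. The Esr2 probe therefore does not check the Ex3bERKO label. Array Ex3aERKO 2 stood apart by 7 liver genes (mean deviation of 6.99 on the log2 scale from each gene's mean over 16 arrays), control 4 by 7 erythroid genes (1.88) and Ex3abERKO 2 by 12 genes of surface and oviduct epithelium (1.58).

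In Ex3abERKO ovaries 16 of 21 M phase genes and 5 of 14 S phase genes were lower than in control ovaries, and the class means of both stood below all control arrays on 3 of 4 Ex3aERKO arrays. None of the S and M phase genes was called in Ex3bERKO ovaries. In Ex3abERKO ovaries 22 of the 48 genes were lower and 1 was higher, where 11.7% of all features were called lower, 10.7% higher and 22.4% in either direction. In Ex3aERKO ovaries 5 of 48 were lower and 0 higher, where 4.2% of all features were lower, 3.86% higher and 8.06% either. In Ex3bERKO ovaries 1 of 48 was lower and 0 higher, against 0.657% of all features lower, 0.398% higher and 1.05% either. A gene counted as lower or higher when its adjusted p in limma, over all 24366 features, was under 0.05. The median difference from control over the 48 genes was -0.73 in Ex3aERKO, 0.12 in Ex3bERKO and -0.79 in Ex3abERKO ovaries, beside medians over all features of -0.08, 0.01 and -0.10. The 3 comparisons share their control arrays.

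**Figure D1:**
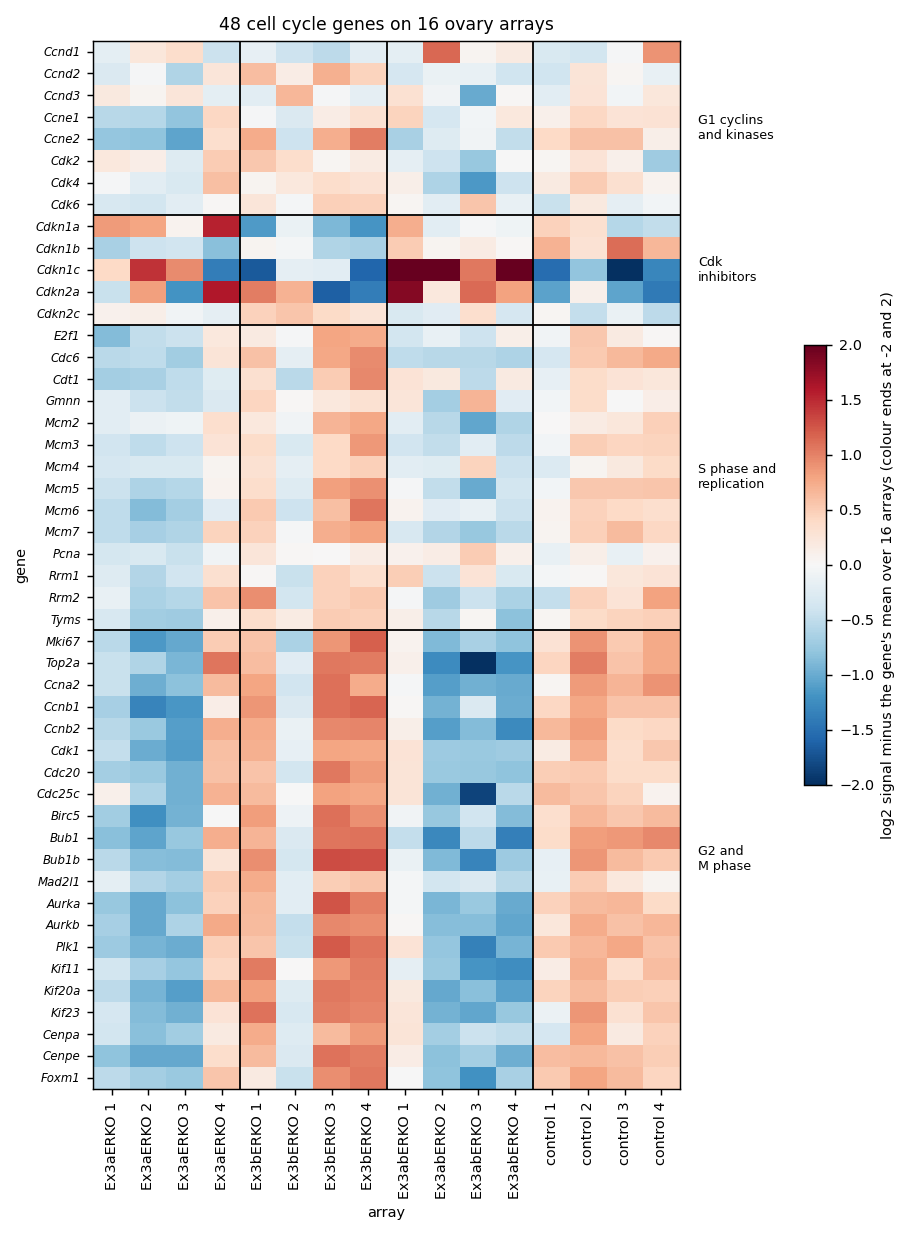
Level of each of the 48 genes on each of the 16 arrays, as log2 signal minus the gene's own mean over the arrays (red higher, blue lower, colour ends at -2 and 2), with the genes in 4 classes from top to bottom. The block of 21 G2 and M phase genes is mostly blue on Ex3aERKO arrays 1 to 3 and Ex3abERKO arrays 2 to 4 and red or pale on Ex3aERKO 4, Ex3abERKO 1, 3 of the Ex3bERKO arrays and all control arrays.

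These counts rest on few arrays. For Ex3abERKO against control, 8 genes were called without Ex3abERKO 2, 9 without Ex3abERKO 4, 9 without control 2, 10 without control 3, 13 without control 4, and 1 without Ex3aERKO 2, Ex3abERKO 2 and control 4 together. For Ex3aERKO against control the count was 23 without Ex3aERKO 4, 9 without Ex3bERKO 2, and 1 to 3 without any one of Ex3aERKO 1, 2 or 3, Ex3bERKO 1 or 3, Ex3abERKO 2 or any one control array. With the slide in the model as a fixed or a random block it was 8 or 9, with Bub1b among those gained under the fixed block (adjusted p = 0.0388) and Aurka under the random one (adjusted p = 0.0485). The single call for Ex3bERKO, Cdkn1b, was not made under 17 of 30 alternative settings.

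All 21 genes of G2 and M phase had a negative difference in Ex3abERKO ovaries against control, and 16 of them fell by the test. The class median was -1.20 on the log2 scale, from -1.79 for Top2a to -0.47 for Mad2l1. The 5 genes that did not pass were Cdk1 (-0.92 ± 0.36, adjusted p = 0.0776), Cdc20 (-0.94 ± 0.36, adjusted p = 0.0743), Mad2l1 (-0.47 ± 0.27, adjusted p = 0.237), Kif23 (-1.03 ± 0.38, adjusted p = 0.0647) and Cenpa (-0.61 ± 0.31, adjusted p = 0.194). In Ex3aERKO ovaries all 21 differences were negative too, with a median of -0.97, but 3 passed the test, and 18 had an unadjusted p under 0.05. In Ex3bERKO ovaries 14 of 21 differences were positive, the median was 0.09, and limma called 0 genes, with 0 at an unadjusted p under 0.05.

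**Figure D2:**
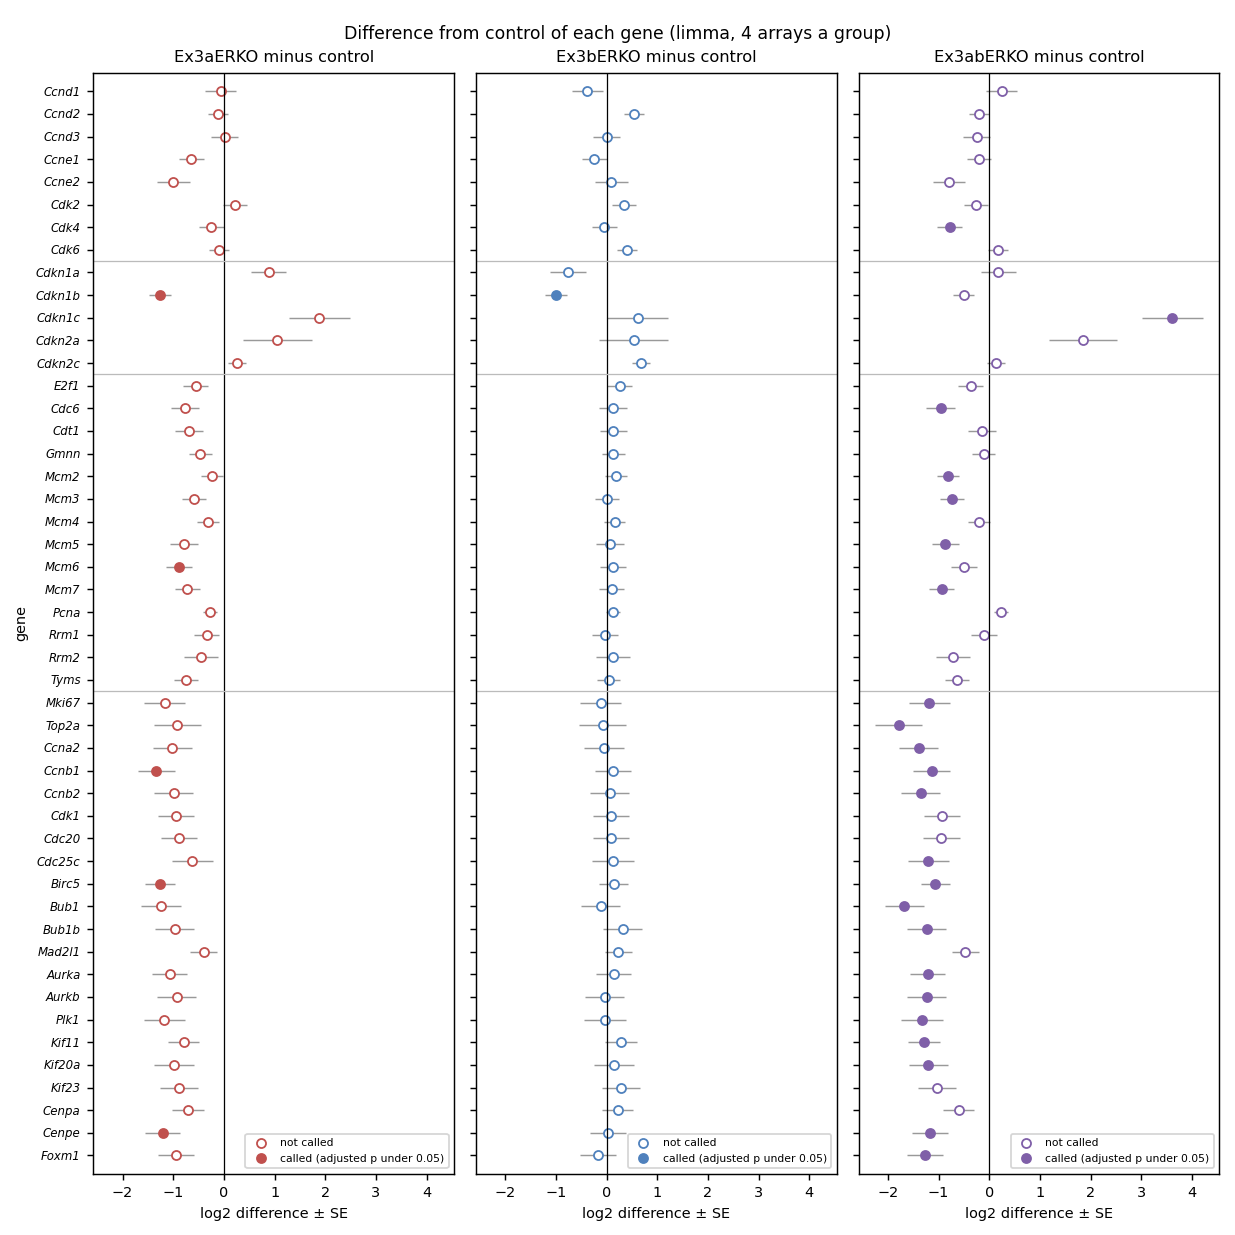
Difference from control of each of the 48 genes on the log2 scale (x axis, point with a bar of 1 standard error from limma, 4 arrays a group), for Ex3aERKO, Ex3bERKO and Ex3abERKO ovaries from left to right. Filled points passed an adjusted p of 0.05. The 21 G2 and M phase genes at the bottom lie left of 0 in Ex3aERKO and Ex3abERKO ovaries, with 3 and 16 filled, and around 0 in Ex3bERKO ovaries with 0 filled.

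Top2a encodes topoisomerase II alpha, which untangles the copied chromosomes before they separate, and its probe lay on chromosome 11 at 99104969 to 99105783 (mm7). Its level on arrays 1 to 4, as log2 signal relative to the array's 75th percentile, was -1.16, -1.32, -1.62 and 0.35 on the Ex3aERKO arrays, -0.09, -0.95, 0.33 and 0.32 on the Ex3bERKO arrays and -0.62, -1.98, -2.76 and -1.90 on the Ex3abERKO arrays, against -0.28, 0.30, -0.15 and 0.04 on the control arrays. The control arrays lay above all Ex3abERKO arrays, while Ex3aERKO 4 was the highest of all 16. The difference was -1.79 ± 0.46 (adjusted p = 0.0127) for Ex3abERKO, -0.92 ± 0.46 (adjusted p = 0.284) for Ex3aERKO and -0.08 ± 0.46 (adjusted p = 0.995) for Ex3bERKO, each minus control.

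Bub1, a kinase of the spindle checkpoint that delays separation until every chromosome is attached, was read on chromosome 2 at 127542105 to 127542164. Bub1 stood at -2.17, -2.39, -2.09 and -0.60 on the Ex3aERKO arrays, -0.65, -1.62, -0.26 and -0.24 on the Ex3bERKO arrays and -1.81, -2.63, -1.86 and -2.70 on the Ex3abERKO arrays, and at -0.96, -0.49, -0.47 and -0.37 on the control arrays. Every Ex3abERKO array lay below every control array, as did Ex3aERKO arrays 1 to 3. The difference from control was -1.67 ± 0.39 (adjusted p = 0.00701) in Ex3abERKO and -1.24 ± 0.39 (adjusted p = 0.0678) in Ex3aERKO ovaries, where it passed with the slide as a random block (adjusted p = 0.0466).

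Ccnb1, which encodes cyclin B1, the activator of Cdk1 at the entry to mitosis, was one of the few M phase genes called in both comparisons. Ccnb1 levels were -2.09, -2.74, -2.58 and -1.29 on the Ex3aERKO arrays, -0.55, -1.71, -0.32 and -0.26 on the Ex3bERKO arrays and -1.40, -2.38, -1.72 and -2.41 on the Ex3abERKO arrays, against -1.01, -0.65, -0.85 and -0.85 on the control arrays. No array of Ex3aERKO or Ex3abERKO ovaries reached the lowest control array, and the difference from control was -1.33 ± 0.36 (adjusted p = 0.0339) in Ex3aERKO and -1.14 ± 0.36 (adjusted p = 0.0349) in Ex3abERKO ovaries. For Ccnb2, cyclin B2, Ex3aERKO 4 stood among the control arrays. For Ccnb2 the log2 level was 1.14, 0.95, 0.59 and 2.41 on the Ex3aERKO arrays, 2.43, 1.56, 2.65 and 2.67 on the Ex3bERKO arrays and 1.81, 0.60, 0.82 and 0.43 on the Ex3abERKO arrays, and 2.34, 2.54, 2.07 and 2.11 on the control arrays. Its difference was -1.35 ± 0.38 (adjusted p = 0.021) in Ex3abERKO ovaries and -0.99 ± 0.38 (adjusted p = 0.141) in Ex3aERKO ovaries. Ccna2, cyclin A2, acts in S phase and in early mitosis. Ccna2 stood at 0.35, -0.19, -0.04 and 1.42 on the Ex3aERKO arrays, 1.58, 0.40, 1.88 and 1.53 on the Ex3bERKO arrays and 0.76, -0.32, -0.17 and -0.23 on the Ex3abERKO arrays, and at 0.83, 1.63, 1.46 and 1.68 on the control arrays. It differed from control by -1.39 ± 0.39 (adjusted p = 0.0188) in Ex3abERKO and -1.02 ± 0.39 (adjusted p = 0.134) in Ex3aERKO ovaries.

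Plk1 encodes a kinase that drives the maturation of centrosomes and the exit from G2. Plk1 levels were -0.02, -0.21, -0.27 and 1.20 on the Ex3aERKO arrays, 1.27, 0.27, 1.95 and 1.78 on the Ex3bERKO arrays and 0.99, -0.06, -0.63 and -0.21 on the Ex3abERKO arrays, against 1.24, 1.38, 1.48 and 1.29 on the control arrays. The control arrays lay within a narrow band, and all Ex3abERKO arrays and all Ex3aERKO arrays lay below it, Ex3aERKO 4 only just. The difference was -1.33 ± 0.41 (adjusted p = 0.031) for Ex3abERKO and -1.17 ± 0.41 (adjusted p = 0.1) for Ex3aERKO, each minus control.

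The other genes of the class included the proliferation antigen Mki67, which fell in Ex3abERKO ovaries (-1.18 ± 0.40, adjusted p = 0.0483) and differed by -1.17 ± 0.40 (adjusted p = 0.0966) in Ex3aERKO ovaries. Birc5, the chromosomal passenger protein survivin, fell in Ex3aERKO (-1.26 ± 0.29, adjusted p = 0.0145) and in Ex3abERKO ovaries (-1.07 ± 0.29, adjusted p = 0.0161), and Cenpe, a motor that moves chromosomes to the spindle equator, likewise (-1.21 ± 0.35, adjusted p = 0.0471, and -1.17 ± 0.35, adjusted p = 0.0264). Foxm1, the transcription factor of many G2 and M phase genes, fell in Ex3abERKO ovaries (-1.26 ± 0.36, adjusted p = 0.0197). The mitotic kinases Aurka (-1.22 ± 0.35, adjusted p = 0.0211) and Aurkb (-1.23 ± 0.39, adjusted p = 0.0331), the checkpoint kinase Bub1b (-1.23 ± 0.38, adjusted p = 0.0318) and the spindle motor Kif11 (-1.28 ± 0.31, adjusted p = 0.00834) fell there as well. So did the phosphatase Cdc25c (-1.20 ± 0.41, adjusted p = 0.0471) and the motor of cell division Kif20a (-1.20 ± 0.39, adjusted p = 0.0386).

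On slides 1, 2 and 4, which held both groups, all 21 were lower in Ex3abERKO than in control, with class medians of -1.16, -0.90 and -1.56, and all 23 calls of the 48 genes kept their direction on each of these slides. For Ex3aERKO against control all 21 were lower on slides 1, 2 and 3 (medians of -1.24, -1.51 and -1.36) and 11 of 21 on slide 4 (median of -0.0044), which held Ex3aERKO 4. For Ex3bERKO against control the direction differed between slides, with 20 of 21 lower on slide 1 (median of -0.66), which held Ex3bERKO 2, 4 of 21 on slide 3 (0.14) and 0 of 21 on slide 4 (0.48). Across 30 alternative settings the median for Ex3abERKO minus control ran from -1.44 to -1.09, while the number called lower ran from 0 to 19. It was 5 without Ex3abERKO 2, 6 without Ex3abERKO 4, 10 without Ex3abERKO 3, 10 without control 1, 6 without control 2, 7 without control 3, 9 without control 4 and 0 without the 3 arrays named above. For Ex3aERKO minus control the median ran from -1.35 to -0.81 and the number called lower from 0 to 20, with 15 without Ex3aERKO 4 and 0 without Ex3aERKO 2.

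In each knockout group 1 array took the same end of the group for the whole class, while the order of the other arrays varied. Ex3aERKO 4 was the highest of its group for 21 of 21 M phase genes, Ex3abERKO 1 was the highest of its group for 21 of 21, and Ex3bERKO 2 was the lowest of its group for 21 of 21. The mean deviation of the class from each gene's mean over the 16 arrays was -0.52, -0.90, -0.91 and 0.50 on the Ex3aERKO arrays, 0.72, -0.28, 0.99 and 0.97 on the Ex3bERKO arrays, 0.06, -0.89, -0.90 and -0.90 on the Ex3abERKO arrays, and 0.29, 0.74, 0.51 and 0.53 on the control arrays. Ex3aERKO 4 thus lay at the level of the control arrays, and Ex3bERKO 2 and Ex3abERKO 1 lay between the others. The group mean was highest in Ex3bERKO for 14 of the 21 genes and in control for 7, and lowest in Ex3abERKO for 16 and in Ex3aERKO for 5.

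**Figure D3:**
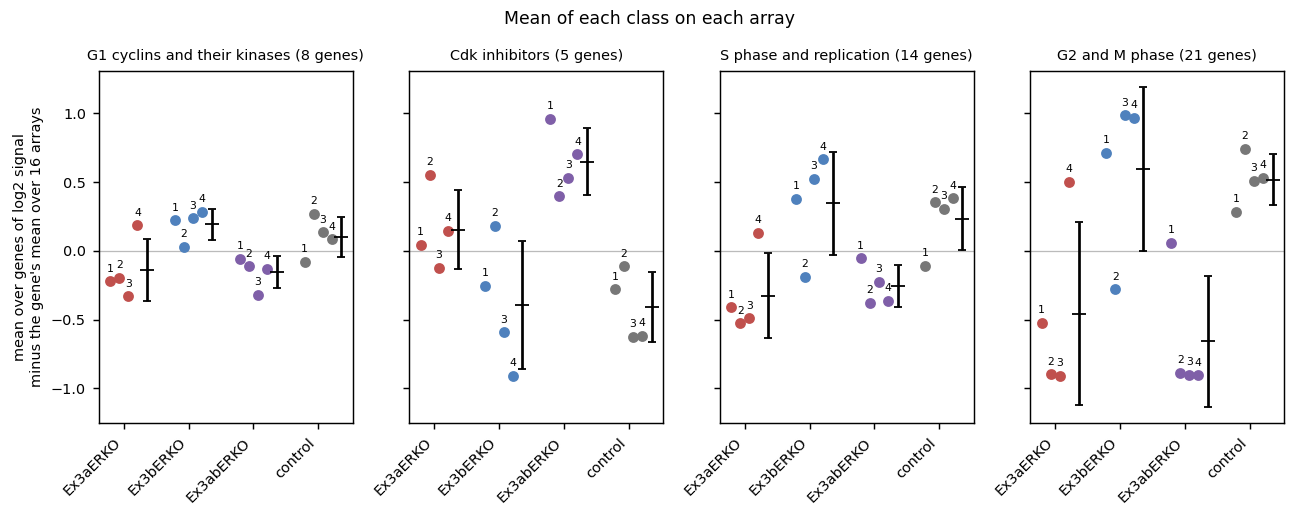
Mean over the genes of each class of log2 signal minus the gene's mean over 16 arrays (y axis), 1 numbered point per array, with a bar for the mean ± SD of the 4 arrays of a group. In the G2 and M phase panel 1 array of each knockout group lies away from its other 3, at 0.50 for Ex3aERKO 4, -0.28 for Ex3bERKO 2 and 0.06 for Ex3abERKO 1.

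Genes of S phase and replication had smaller differences than those of M phase, with no test between the classes. In Ex3abERKO ovaries 13 of 14 differences from control were negative with a median of -0.57, and 5 genes passed the test, all lower. In Ex3aERKO ovaries all 14 were negative with a median of -0.57, and Mcm6 alone passed. In Ex3bERKO ovaries 13 of 14 were positive with a median of 0.13, and limma called 0, with 0 at an unadjusted p under 0.05. The 5 genes were Cdc6, which loads the replicative helicase on origins, and Mcm2, Mcm3, Mcm5 and Mcm7, which are subunits of that helicase.

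For Cdc6 the log2 level was -3.13, -3.10, -3.28 and -2.33 on the Ex3aERKO arrays, -2.01, -2.78, -1.82 and -1.65 on the Ex3bERKO arrays and -3.10, -3.14, -3.14 and -3.21 on the Ex3abERKO arrays, and -2.92, -2.07, -1.95 and -1.83 on the control arrays. The 4 Ex3abERKO arrays of Cdc6 lay close together and all below control 1, the lowest control array. The difference was -0.96 ± 0.28 (adjusted p = 0.0249) for Ex3abERKO and -0.77 ± 0.28 (adjusted p = 0.119) for Ex3aERKO, each minus control. Mcm7 stood at 2.08, 1.93, 1.99 and 3.03 on the Ex3aERKO arrays, 3.06, 2.57, 3.31 and 3.40 on the Ex3bERKO arrays and 2.27, 2.01, 1.83 and 2.05 on the Ex3abERKO arrays, and at 2.65, 3.06, 3.22 and 3.002 on the control arrays. Mcm7 was lower on every Ex3abERKO array than on any control array, whereas Ex3aERKO 4 lay among the control arrays. Its difference was -0.94 ± 0.25 (adjusted p = 0.0139) in Ex3abERKO and -0.72 ± 0.25 (adjusted p = 0.093) in Ex3aERKO ovaries, where it passed with the slide as a fixed block (adjusted p = 0.0369) or a random block (adjusted p = 0.0492).

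Mcm6, another subunit of the same ring, gave the one call of the class in Ex3aERKO ovaries. Mcm6 levels were 3.40, 3.03, 3.22 and 3.68 on the Ex3aERKO arrays, 4.42, 3.49, 4.50 and 4.98 on the Ex3bERKO arrays and 3.97, 3.67, 3.76 and 3.47 on the Ex3abERKO arrays, against 3.97, 4.36, 4.29 and 4.24 on the control arrays. All Ex3aERKO arrays lay below all control arrays, and 3 of the 4 Ex3abERKO arrays did, Ex3abERKO 1 being level with control 1. The difference from control was -0.88 ± 0.26 (adjusted p = 0.0473) in Ex3aERKO and -0.50 ± 0.26 (adjusted p = 0.188) in Ex3abERKO ovaries.

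For Mcm5 the log2 level was 0.65, 0.46, 0.50 and 1.15 on the Ex3aERKO arrays, 1.42, 0.82, 1.90 and 1.99 on the Ex3bERKO arrays and 1.06, 0.59, 0.08 and 0.72 on the Ex3abERKO arrays, and 1.03, 1.62, 1.62 and 1.62 on the control arrays. The overlap of Ex3abERKO with control ovaries came from array 1, which exceeded control 1. Mcm5 differed from control by -0.86 ± 0.28 (adjusted p = 0.0359) in Ex3abERKO and -0.78 ± 0.28 (adjusted p = 0.103) in Ex3aERKO ovaries, where it passed with the slide as a fixed block (adjusted p = 0.0262). Mcm2 stood at 0.78, 0.87, 0.90 and 1.32 on the Ex3aERKO arrays, 1.20, 0.92, 1.66 and 1.75 on the Ex3bERKO arrays and 0.78, 0.44, -0.05 and 0.39 on the Ex3abERKO arrays, and at 0.99, 1.15, 1.21 and 1.46 on the control arrays. No Ex3abERKO array reached the lowest control array. Mcm2 fell in Ex3abERKO ovaries (-0.82 ± 0.22, adjusted p = 0.0151) and differed by -0.24 ± 0.22 (adjusted p = 0.637) in Ex3aERKO ovaries. Mcm3 levels were 1.80, 1.67, 1.78 and 2.46 on the Ex3aERKO arrays, 2.55, 1.89, 2.59 and 3.06 on the Ex3bERKO arrays and 1.80, 1.70, 1.97 and 1.66 on the Ex3abERKO arrays, against 2.13, 2.68, 2.62 and 2.63 on the control arrays. Mcm3 fell in Ex3abERKO ovaries (-0.73 ± 0.24, adjusted p = 0.038), every array of which lay below every control array.

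The clamp Pcna, which tethers the polymerase to DNA, did not go with Mcm2, Mcm3, Mcm5 and Mcm7 in Ex3abERKO ovaries. In Ex3aERKO ovaries its difference from control was negative like theirs (-0.27). For Pcna the log2 level was 3.39, 3.44, 3.31 and 3.68 on the Ex3aERKO arrays, 3.99, 3.77, 3.76 and 3.90 on the Ex3bERKO arrays and 3.84, 3.89, 4.25 and 3.86 on the Ex3abERKO arrays, and 3.60, 3.87, 3.60 and 3.83 on the control arrays. The Ex3abERKO arrays lay at or above the control arrays apart from control 2, and the difference of Ex3abERKO minus control was 0.23 ± 0.14 (adjusted p = 0.265). Pcna was higher in Ex3abERKO than in Ex3aERKO ovaries (0.50 ± 0.14, adjusted p = 0.0407), a call not made under 18 of 30 alternative settings. The nucleotide synthesis genes Tyms (-0.64 ± 0.23, adjusted p = 0.0617), Rrm2 (-0.71 ± 0.33, adjusted p = 0.15) and Rrm1 (-0.11 ± 0.26, adjusted p = 0.828), the licensing factor Cdt1 (-0.14 ± 0.27, adjusted p = 0.778) and its inhibitor Gmnn (-0.11 ± 0.23, adjusted p = 0.799) did not pass in Ex3abERKO ovaries, nor did E2f1 (-0.37 ± 0.25, adjusted p = 0.333) and Mcm4 (-0.20 ± 0.21, adjusted p = 0.578).

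On the shared slides 1, 2 and 4 the S phase median for Ex3abERKO minus control was -0.18, -0.65 and -0.83, with 8, 12 and 13 of 14 genes lower. For Ex3aERKO minus control it was -0.44, -0.79, -0.79 and -0.17 on slides 1 to 4, with 14, 14, 14 and 9 lower. The number called lower in Ex3abERKO ovaries was 2 without any one of Ex3abERKO 2, Ex3abERKO 4, control 2, control 3 or control 4, and 0 without the 3 arrays named above. In Ex3aERKO ovaries it was 4 without Ex3aERKO 4, and 0 without any one of Ex3aERKO 1, 2 or 3, Ex3bERKO 1 or 3, Ex3abERKO 1 or 2, or control 2, 3 or 4.

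Of 8 cyclins and kinases of G1, 1 was called in Ex3abERKO ovaries against control (Cdk4, lower), 0 in Ex3aERKO and 0 in Ex3bERKO ovaries, where 2 and 1 had an unadjusted p under 0.05. The 1 call is 12.5% of the class, near the 11.7% of all features called lower in Ex3abERKO ovaries. The class medians were -0.11 in Ex3aERKO, 0.05 in Ex3bERKO and -0.22 in Ex3abERKO ovaries. Cdk4, the partner of the D cyclins, was read on chromosome 10 at 126562389 to 126562448 (mm7). Cdk4 stood at 1.81, 1.63, 1.54 and 2.45 on the Ex3aERKO arrays, 1.90, 2.06, 2.19 and 2.13 on the Ex3bERKO arrays and 1.95, 1.23, 0.69 and 1.43 on the Ex3abERKO arrays, and at 2.02, 2.35, 2.16 and 1.91 on the control arrays. Ex3abERKO 1 lay among the control arrays and the other 3 below them, and the difference was -0.78 ± 0.25 (adjusted p = 0.0331). The call was lost under 9 of 30 alternative settings.

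Ccnd2, cyclin D2, is a D cyclin that granulosa cells of the mouse need to multiply. Ccnd2 levels were 3.67, 3.93, 3.36 and 4.19 on the Ex3aERKO arrays, 4.58, 4.11, 4.66 and 4.41 on the Ex3bERKO arrays and 3.63, 3.83, 3.80 and 3.56 on the Ex3abERKO arrays, against 3.56, 4.22, 3.99 and 3.82 on the control arrays. Its arrays overlapped between every knockout group and control, and it differed from control by 0.54 ± 0.20 (adjusted p = 0.307) in Ex3bERKO, -0.11 ± 0.20 (adjusted p = 0.844) in Ex3aERKO and -0.19 ± 0.20 (adjusted p = 0.553) in Ex3abERKO ovaries. It was lower in Ex3abERKO than in Ex3bERKO ovaries (-0.74 ± 0.20, adjusted p = 0.0204), without overlap between those arrays. Cdk6 is a kinase of the D cyclins like Cdk4. For Cdk6 the log2 level was 1.86, 1.81, 1.97 and 2.21 on the Ex3aERKO arrays, 2.42, 2.15, 2.67 and 2.64 on the Ex3bERKO arrays and 2.22, 1.97, 2.75 and 2.04 on the Ex3abERKO arrays, and 1.74, 2.38, 2.01 and 2.12 on the control arrays. It differed by 0.40 ± 0.20 (adjusted p = 0.541) in Ex3bERKO ovaries, and its 3 probes gave 0.18, -0.53 and -0.74 for Ex3abERKO minus control, so its direction there depends on the probe. Cyclin E2, Ccne2, differed by -1.001 ± 0.32 (adjusted p = 0.0739) in Ex3aERKO and -0.79 ± 0.32 (adjusted p = 0.0936) in Ex3abERKO ovaries, and its other probe gave -1.10 and -1.21. Ccne2 passed in Ex3aERKO ovaries with the slide as a random block (adjusted p = 0.0468) and in Ex3abERKO ovaries with the mean of all probes (adjusted p = 0.0457), among other settings. Ccnd1, Ccnd3, Ccne1 and Cdk2 lay between -0.65 and 0.35 in the comparisons with control.

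The 5 Cdk inhibitors did not move as a group. Against control, 1 of 5 was called in each knockout group: Cdkn1b lower in Ex3aERKO, Cdkn1b lower in Ex3bERKO and Cdkn1c higher in Ex3abERKO ovaries. Each is 20% of the class, where 8.06%, 1.05% and 22.4% of all features were called in either direction, in that order. The count thus did not set the class apart in Ex3abERKO ovaries.

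**Figure D4:**
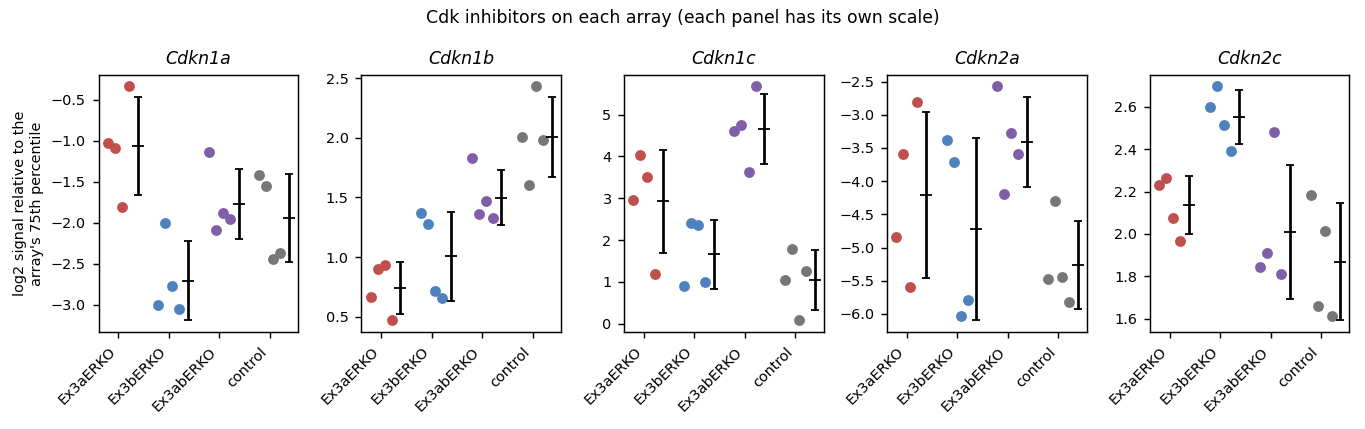
Level of the 5 Cdk inhibitors on each array, as log2 signal relative to the array's 75th percentile (y axis, its own scale in each panel), with bars for the mean ± SD of the 4 arrays of a group. Cdkn1b is below control in Ex3aERKO and Ex3bERKO ovaries without overlap, with Ex3abERKO ovaries nearer to control. Cdkn1c is above control in Ex3abERKO ovaries without overlap.

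Cdkn1b encodes p27, which holds Cdk2 complexes inactive and which is known in the mouse to restrain luteal and granulosa cells. Its probe lay on chromosome 6 at 134939519 to 134939578 (mm7). Cdkn1b stood at 0.66, 0.91, 0.94 and 0.47 on the Ex3aERKO arrays, 1.37, 1.28, 0.72 and 0.66 on the Ex3bERKO arrays and 1.83, 1.36, 1.47 and 1.33 on the Ex3abERKO arrays, and at 2.003, 1.61, 2.43 and 1.98 on the control arrays. All arrays of Ex3aERKO and Ex3bERKO ovaries lay below all control arrays, and 3 of 4 Ex3abERKO arrays did. The difference from control was -1.26 ± 0.21 (adjusted p = 0.00254) in Ex3aERKO ovaries, a 2.4-fold lower level, -0.997 ± 0.21 (adjusted p = 0.0386) in Ex3bERKO ovaries and -0.51 ± 0.21 (adjusted p = 0.107) in Ex3abERKO ovaries. Ex3abERKO ovaries thus had more Cdkn1b than Ex3aERKO ovaries (0.76 ± 0.21, adjusted p = 0.0439).

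Cdkn1b was lower in Ex3bERKO ovaries than in control but higher in Ex3abERKO than in Ex3aERKO ovaries, so the difference that went with the loss of ERβ had opposite signs with and without ERα. The interaction, which is Ex3abERKO minus Ex3aERKO less Ex3bERKO minus control, was 1.75 ± 0.30 (adjusted p = 0.00627). It was the only one of the 48 genes called in that contrast, higher, where 1.84% of all features were called higher, 1.78% lower and 3.62% either. The 3 kept probes of Cdkn1b, which lie at separate places of the gene, gave interactions of 1.75, 2.28 and 2.13, and differences from control of -1.26, -1.84 and -1.62 for Ex3aERKO ovaries, -0.997, -1.48 and -1.27 for Ex3bERKO ovaries and -0.51, -1.04 and -0.75 for Ex3abERKO ovaries. With the mean of these probes the Ex3abERKO difference passed (-0.77, adjusted p = 0.0287). The interaction was called under 29 of 29 alternative settings (1.57 to 2.06) and the Ex3aERKO difference under 30 of 30 (-1.57 to -1.12). The Ex3bERKO call and the call between the single and double knockout were less firm, being made under 13 and 12 of 30 settings. For Ex3abERKO against control the log2 difference of the brightest probe was -0.53, -0.38 and -1.10 within slides 1, 2 and 4.

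Cdkn1c encodes p57, an imprinted inhibitor found in many cells that have left the cycle. Its probe lay on chromosome 7 at 139886128 to 139886187 (mm7), minus strand. Cdkn1c levels were 2.97, 4.03, 3.52 and 1.20 on the Ex3aERKO arrays, 0.89, 2.40, 2.36 and 0.99 on the Ex3bERKO arrays and 4.60, 4.74, 3.62 and 5.68 on the Ex3abERKO arrays, against 1.05, 1.78, 0.08 and 1.27 on the control arrays. All Ex3abERKO arrays lay above all control arrays, by 12.3-fold in the group means, and the difference was 3.62 ± 0.60 (adjusted p = 0.000845). It was 1.88 ± 0.60 (adjusted p = 0.0726) in Ex3aERKO ovaries, where arrays 1 to 3 lay above every control array and array 4 did not, and 0.62 ± 0.60 (adjusted p = 0.872) in Ex3bERKO ovaries. Both calls for Ex3abERKO, against control and against Ex3bERKO (3.000 ± 0.60, adjusted p = 0.00435), were made under 30 of 30 alternative settings. Against Ex3aERKO ovaries the Ex3abERKO difference of Cdkn1c was 1.73, and the interaction was 1.12, neither of them called. In Ex3aERKO ovaries Cdkn1c passed against control with array weights (adjusted p = 0.00218) and without Ex3aERKO 4 (adjusted p = 0.0112), among other settings.

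Cdkn1a encodes p21, a target of p53. For Cdkn1a the log2 level was -1.02, -1.08, -1.80 and -0.33 on the Ex3aERKO arrays, -3.01, -2.002, -2.77 and -3.05 on the Ex3bERKO arrays and -1.14, -2.09, -1.89 and -1.95 on the Ex3abERKO arrays, and -1.41, -1.55, -2.44 and -2.37 on the control arrays. Its arrays overlapped with control in every knockout group, and it was higher in Ex3aERKO than in Ex3bERKO ovaries without overlap (1.65 ± 0.35, adjusted p = 0.0202). Cdkn2a, which encodes p16 and p19Arf, varied over more than 2 log2 units within Ex3aERKO and within Ex3bERKO ovaries and differed from control by 1.85 ± 0.68 (adjusted p = 0.0636) in Ex3abERKO ovaries. Cdkn2c encodes p18, and Ex3abERKO 3 lay apart above the other arrays of its group. Cdkn2c stood at 2.23, 2.26, 2.08 and 1.97 on the Ex3aERKO arrays, 2.60, 2.70, 2.52 and 2.39 on the Ex3bERKO arrays and 1.84, 1.91, 2.48 and 1.81 on the Ex3abERKO arrays, and at 2.19, 1.66, 2.02 and 1.61 on the control arrays. It differed from control by 0.68 ± 0.18 (adjusted p = 0.0949) in Ex3bERKO ovaries, all of whose arrays lay above the control arrays, without passing the test.

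The knockouts were also set against each other. Between Ex3abERKO and Ex3aERKO ovaries 2 of 48 genes were called, both higher (Pcna and Cdkn1b), where 4.43% of all features were higher, 3.35% lower and 7.79% either. Of the 21 M phase genes limma called 0 there, with 0 at an unadjusted p under 0.05, and the class median was -0.15. On slides 1 and 2 the M phase median was 0.10 and 0.52, and on slide 4, which held Ex3aERKO 4, it was -1.33, so the direction was not the same on all slides. The interaction likewise had 0 calls among the M phase genes, with 0 at an unadjusted p under 0.05.

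Between Ex3abERKO and Ex3bERKO ovaries 22 genes were lower and 1 was higher, where 8.44% of all features were lower, 8.27% higher and 16.7% either. By class these were 16 of 21 M phase genes (median -1.29), 5 of 14 S phase genes (median -0.65), Ccnd2, and Cdkn1c as the higher one. Both slides that held these groups had all 21 M phase genes lower, with medians of -0.57 on slide 1 and -2.02 on slide 4. The S phase median was -0.02 on slide 1, with 7 of 14 lower, and -0.98 on slide 4, with 13 of 14 lower, and the called Mcm3 did not keep its direction on both. The count was 10 with the slide as a fixed block, 7 without Ex3bERKO 3, 7 without Ex3bERKO 4, 10 without any one of Ex3bERKO 1, Ex3abERKO 2 or Ex3abERKO 4, 15 without Ex3abERKO 3 and 5 without the 3 arrays named above. Between Ex3aERKO and Ex3bERKO ovaries Ccnb1 (-1.46 ± 0.36, adjusted p = 0.0469) and Birc5 (-1.40 ± 0.29, adjusted p = 0.0176) were lower and Cdkn1a was higher, 3 of 48, where 1.7% of all features were lower, 0.657% higher and 2.36% either. All 35 genes of S and M phase had a negative difference there, with a median of -0.90. That count was 19 without Ex3aERKO 4, 17 without Ex3bERKO 2, 1 without Ex3aERKO 1 or without Ex3aERKO 3, and 0 without any one of Ex3aERKO 2, Ex3bERKO 1, Ex3bERKO 3 or Ex3bERKO 4.

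A further 100 genes of the same pathways were read from 3 lists. Of 40 other mitosis genes 25 fell in Ex3abERKO ovaries against control (62.5%, where 11.7% of all features were lower) and 5 in Ex3aERKO ovaries (12.5%, where 4.2% were lower), and limma called 0 in Ex3bERKO ovaries, with 1 at an unadjusted p under 0.05. The medians were -0.92 in Ex3aERKO, 0.09 in Ex3bERKO and -1.10 in Ex3abERKO ovaries. The motor Kif15 (-2.11 ± 0.47, adjusted p = 0.00564), the microtubule depolymerase Kif2c (-1.81 ± 0.28, adjusted p = 0.000477), the chromosome motor Kif4 (-1.43 ± 0.33, adjusted p = 0.00727) and the kinetochore protein Spc24 (-1.40 ± 0.29, adjusted p = 0.00348) had the largest calls in Ex3abERKO ovaries. In Ex3aERKO ovaries Spc24 (-1.21 ± 0.29, adjusted p = 0.0192) and Tpx2, a spindle assembly factor (-1.18 ± 0.34, adjusted p = 0.0478), were the largest of the 5.

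Of 30 other replication genes 6 fell in Ex3abERKO ovaries (20%, median -0.47), 3 in Ex3aERKO ovaries (10%, median -0.48) and 0 in Ex3bERKO ovaries, where 0 had an unadjusted p under 0.05. Of all features 11.7% were called lower in Ex3abERKO ovaries, 4.2% in Ex3aERKO ovaries and 0.657% in Ex3bERKO ovaries. Those in Ex3abERKO ovaries included Mcm10, which activates the helicase (-1.46 ± 0.36, adjusted p = 0.01), the origin protein Orc1 (-1.09 ± 0.27, adjusted p = 0.0096) and Uhrf1, which keeps DNA methylation through replication (-1.09 ± 0.27, adjusted p = 0.0105). Uhrf1 (-1.28 ± 0.27, adjusted p = 0.0103) and Orc1 (-0.95 ± 0.27, adjusted p = 0.0424) also fell in Ex3aERKO ovaries.

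Of 30 other regulators of the cycle 3 fell and 1 rose in Ex3abERKO ovaries, 2 fell in Ex3aERKO ovaries and 0 passed in Ex3bERKO ovaries by limma, with 2 at an unadjusted p under 0.05. These shares, 13.3% in Ex3abERKO and 6.67% in Ex3aERKO ovaries, were below the 22.4% and 8.06% of all features, so the counts set the list apart in neither comparison. Chek1 encodes the kinase of the DNA damage checkpoint in S and G2 phase. Chek1 levels were -2.76, -2.92, -2.74 and -2.46 on the Ex3aERKO arrays, -1.19, -2.31, -1.01 and -1.004 on the Ex3bERKO arrays and -2.80, -3.12, -2.33 and -3.16 on the Ex3abERKO arrays, against -1.21, -1.07, -0.79 and -0.94 on the control arrays. All arrays of Ex3aERKO and Ex3abERKO ovaries, Ex3aERKO 4 included, lay below all control arrays, and the difference was -1.72 ± 0.27 (adjusted p = 0.00169) in Ex3aERKO and -1.85 ± 0.27 (adjusted p = 0.000347) in Ex3abERKO ovaries. Myc, the transcription factor that drives growth, also fell in both. For Myc the log2 level was 0.22, 0.22, 0.18 and -0.22 on the Ex3aERKO arrays, 1.55, 0.65, 1.31 and 1.13 on the Ex3bERKO arrays and 0.37, 0.61, 0.84 and 0.62 on the Ex3abERKO arrays, and 1.28, 1.38, 1.44 and 1.53 on the control arrays. It differed by -1.31 ± 0.19 (adjusted p = 0.000786) in Ex3aERKO and -0.80 ± 0.19 (adjusted p = 0.00687) in Ex3abERKO ovaries. Gadd45a, a stress gene that inhibits Cdk1, rose in Ex3abERKO ovaries (1.35 ± 0.27, adjusted p = 0.00271), and its interaction was 1.72 ± 0.38 (adjusted p = 0.0234). E2f7, a repressor of the E2F family, fell in Ex3abERKO ovaries (-1.65 ± 0.44, adjusted p = 0.0145).

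Markers of ovarian and immune cells also differed from control in the knockout groups, and whether they went with the cell cycle genes was not tested. Beside the marker counts, 4.2% of all features were called lower and 3.86% higher in Ex3aERKO ovaries. The shares were 0.657% and 0.398% in Ex3bERKO ovaries, and 11.7% and 10.7% in Ex3abERKO ovaries. In whole ovaries fewer dividing cells and less RNA per dividing cell cannot be told apart. Of 19 oocyte genes 14 were lower in Ex3aERKO and 12 in Ex3abERKO ovaries than in control, and limma called 0 in Ex3bERKO ovaries, with 1 at an unadjusted p under 0.05. Their summed signal, in units of each array's 75th percentile, was 2.77 to 15.7 on the Ex3aERKO arrays, 36.6 to 118 on the Ex3bERKO arrays, 9.64 to 16.6 on the Ex3abERKO arrays and 32.5 to 70.3 on the control arrays. Zp3, a protein of the coat of the oocyte, differed by -3.13 ± 0.46 (adjusted p = 0.00108) in Ex3aERKO and -2.52 ± 0.46 (adjusted p = 0.00152) in Ex3abERKO ovaries.

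Of 15 granulosa cell genes 8 were lower in Ex3abERKO ovaries, and 2 were lower and 1 higher in Ex3aERKO ovaries. Of all features 11.7% were lower in Ex3abERKO ovaries, and 4.2% were lower and 3.86% higher in Ex3aERKO ovaries. The 15 granulosa cell genes include Esr2, itself a targeted gene, which is among the 8 lower in Ex3abERKO ovaries. Their summed signal was 161 to 386 on the Ex3aERKO arrays, 135 to 216 on the Ex3bERKO arrays, 38.7 to 105 on the Ex3abERKO arrays and 140 to 256 on the control arrays. Foxl2, the factor that keeps granulosa cells in their identity, did not pass in any comparison with control (-0.22 ± 0.15, adjusted p = 0.345 in Ex3abERKO ovaries).

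Of 15 macrophage genes 13 were higher in Ex3abERKO and 4 in Ex3aERKO ovaries, and of 16 lymphocyte genes 11 were higher in Ex3abERKO ovaries. Of all features 10.7% were called higher in Ex3abERKO and 3.86% in Ex3aERKO ovaries. The macrophage sums were 376 to 588 on the Ex3aERKO arrays, 289 to 509 on the Ex3bERKO arrays, 706 to 814 on the Ex3abERKO arrays and 209 to 331 on the control arrays. The lymphocyte sums were 8.58 to 16.5 on the Ex3aERKO arrays, 4.53 to 18.0 on the Ex3bERKO arrays, 32.9 to 94.1 on the Ex3abERKO arrays and 5.11 to 8.32 on the control arrays. Ptprc, the antigen CD45 of all leukocytes, was higher in Ex3abERKO ovaries (1.80 ± 0.42, adjusted p = 0.00667). Of 12 luteal genes 8 were lower in Ex3abERKO, 6 in Ex3aERKO and 2 in Ex3bERKO ovaries. In that order 11.7%, 4.2% and 0.657% of all features were lower. Every gene of the oocyte, granulosa cell, macrophage, lymphocyte and luteal lists was well above background on at least 1 array of each group. Of 15 Sertoli cell genes 10 were higher and 2 lower in Ex3abERKO, 6 were higher in Ex3aERKO and 2 were higher in Ex3bERKO ovaries. Their sums were 51.6 to 77.3 on the Ex3aERKO arrays, 17.8 to 43.9 on the Ex3bERKO arrays, 23.2 to 65.6 on the Ex3abERKO arrays and 7.03 to 11.3 on the control arrays. Of these genes Dmrt1 did not stand well above background in Ex3aERKO, Ex3bERKO or control ovaries on any array, nor did Tsx in control ovaries. Of 12 endothelial genes 8 were lower in Ex3aERKO ovaries, and 6 were lower and 1 higher in Ex3abERKO ovaries, with sums of 23.3 to 28.2 on the Ex3aERKO arrays, 29.5 to 46.3 on the Ex3bERKO arrays, 27.7 to 35.9 on the Ex3abERKO arrays and 37.2 to 53.4 on the control arrays. Of 12 genes of surface and oviduct epithelium 4 were higher in Ex3aERKO and 5 in Ex3abERKO ovaries, with sums of 29.9 to 90.9 on the Ex3aERKO arrays, 18.0 to 75.2 on the Ex3bERKO arrays, 39.0 to 111 on the Ex3abERKO arrays and 17.4 to 23.9 on the control arrays. The part of these cells in the results on cell cycle genes was not tested.

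**Figure D5:**
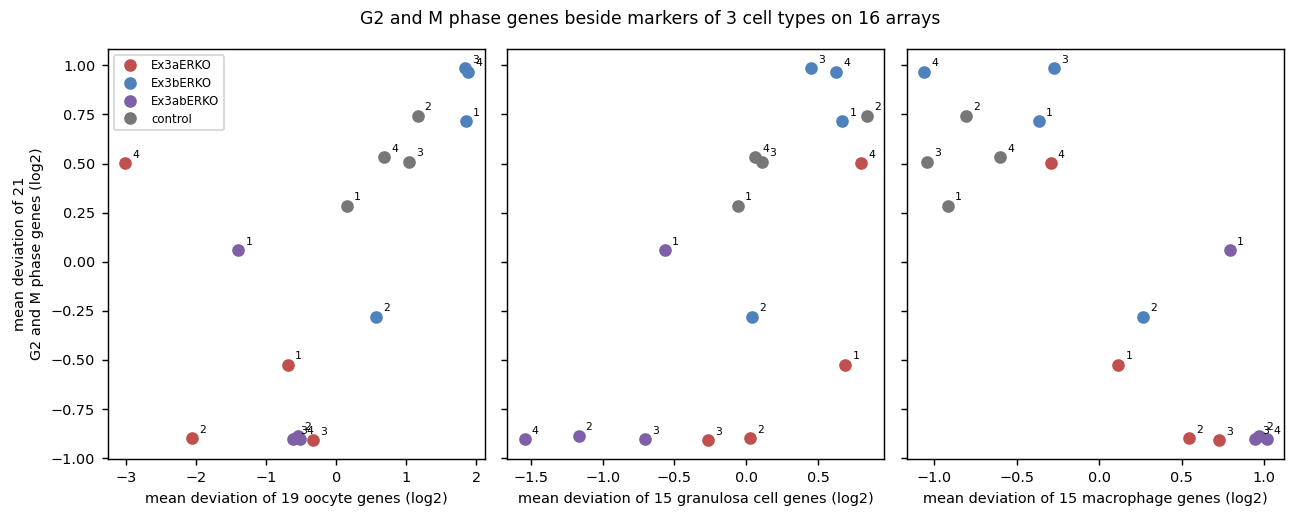
Mean deviation of the 21 G2 and M phase genes (y axis, log2) beside that of 19 oocyte genes, 15 granulosa cell genes and 15 macrophage genes (x axes, log2), 1 numbered point per array and 1 colour per group. Ex3aERKO 4 is at 0.50 for M phase genes while at -3.01 for oocyte genes, the lowest of the 16, and at 0.80 for granulosa cell genes. Ex3aERKO 1 is at -0.52 for M phase genes and at 0.69 for granulosa cell genes.

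Array by array, M phase genes did not always follow the oocyte genes or the granulosa cell genes. Ex3aERKO 4, at the control level for M phase genes, had the lowest mean deviation of the oocyte genes among the 16 arrays (-3.01) and one of the higher ones of the granulosa cell genes (0.80). Ex3abERKO 1, the highest Ex3abERKO array for M phase genes (0.06), had the highest granulosa cell deviation (-0.57), the lowest oocyte deviation (-1.40) and the lowest macrophage deviation (0.79) of its group. Ex3bERKO 2, the lowest Ex3bERKO array for M phase genes (-0.28), was also the lowest of its group for oocyte genes (0.56) and granulosa cell genes (0.04) and the highest for macrophage genes (0.26). Other arrays went against the granulosa cell genes. Ex3aERKO 1, at 0.69 for granulosa cell genes, was at -0.52 for M phase genes. Ex3aERKO 2 was at 0.03 for granulosa cell genes and -0.90 for M phase genes, while control 1 was at -0.06 and 0.29. These are values of single arrays, with no test.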

How the data were processed

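Total RNA of whole ovaries was hybridised to 16 one-colour whole mouse genome arrays and, per the submitters' processing notes, read with Agilent Feature Extraction 9.5. The deposited scanner files give the processed signal of each spot as an intensity, background-subtracted per the file headers, and the series table held the same intensity values for all 41174 probes (tolerance 1e-04). Control and outlier spots were left out, saturated spots were kept and spots of one probe were averaged. Each intensity was divided by the array's 75th percentile and taken as log2, with a floor of -8.88. The file headers place probes on mm7. Probes well above background on at least 4 of 16 arrays were kept, with the brightest for each gene. Differences were tested with limma 3.58.1 in R 4.3.3 over all 24366 features and 4 groups (12 residual degrees of freedom) with Benjamini-Hochberg adjustment. A difference is given as log2 ± standard error. The number of arrays limits the precision. The script was tested on simulated data.

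The members and lists were chosen with earlier results of these data known. Values per array are given for the called genes of each class, at most 6, in order of their largest called difference against control or in the interaction, and for the brightest genes where fewer than 3 were called. Pcna, Cdkn1a, Chek1 and Myc were added after their values were seen. Slides, array weights, background correction, scaling, the filter, the choice of probe, the arrays fitted and each left-out array were varied. Arrays with the same number did not deviate together (median r of -0.07 over 24 pairs), unlike arrays of one slide (0.28 over 22 pairs).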

Additional observations from a re-analysis of the deposited data

Results flagged for a closer look

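Of 192 sets of 4 arrays (48 genes in 4 groups) 16 held an array whose gap to the nearest other exceeded Dixon's critical share of the range, where chance gives about 5 percent. The 48 genes were read on the same arrays, so the sets are not independent and the count was not tested against that share. Ex3aERKO 4 was high for 6 genes: Mcm3 (2.46), Mcm4 (2.74), Mcm7 (3.03), Bub1 (-0.60), Cenpe (2.08) and Foxm1 (-1.32), all as log2 levels. Ex3bERKO 2 was low for Cdk1 (-0.042) and Kif23 (-0.83). Ex3abERKO 1 was high for Ccna2 (0.76), Cdk1 (0.39) and Cdc20 (2.17). Ex3abERKO 3 was high for Cdkn2c (2.48) and Pcna (4.25) and low for Cdt1 (1.18). Control 1 was low for Mcm3 (2.13) and Mcm5 (1.03).

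The difference that went with the loss of ERβ was not the same with and without ERα for Cdkn1b, where the interaction was 1.75 on the log2 scale (limma, adjusted p = 0.00627).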

How the results depend on the processing

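Of the 48 genes, 5 were called for Ex3aERKO minus control, 1 for Ex3bERKO minus control, 23 for Ex3abERKO minus control, 2 for Ex3abERKO minus Ex3aERKO, 23 for Ex3abERKO minus Ex3bERKO, 3 for Ex3aERKO minus Ex3bERKO and 1 in the interaction. In that order of comparisons, leaving out 1 array gave 1 to 23, 0 to 2, 8 to 28, 0 to 2, 7 to 32, 0 to 19 and 1 to 2. For Ex3aERKO minus control the count was 32 with array weights, 9 with the slide as a random block, 8 with it as a fixed block, 3 with median scaling, no filter, normexp or the replicate block, and 1 without Ex3aERKO 2, Ex3abERKO 2 and control 4. For Ex3bERKO minus control it was 2 with array weights and 0 with median scaling, normexp, only the groups compared, the replicate block, the slide as a fixed block, or without those 3 arrays. For Ex3abERKO minus control it was 13 with normexp and 1 without the 3 arrays. For Ex3abERKO minus Ex3aERKO it was 1 with array weights, the mean of all probes, quantile normalization or the slide as a fixed block, and 0 with median scaling, normexp, only the groups compared, the replicate block, or without the 3 arrays. For Ex3abERKO minus Ex3bERKO it was 37 with array weights, 15 with normexp, 11 with only the groups compared, 10 with the slide as a fixed block and 5 without the 3 arrays. For Ex3aERKO minus Ex3bERKO it was 32 with array weights, 1 with normexp and 0 with only the groups compared or without the 3 arrays. The interaction had 2 calls with array weights or quantile normalization. The median of the 5 Cdk inhibitors for Ex3bERKO minus control was 0.54 and turned to -0.47 with normexp. The causes were not tested. Replicate numbers did not pair the arrays, 4 of 16 of which correlated best with their own number, and the replicate block changed the counts only as given. By slide, 14 of 16 arrays correlated best with an array of their own slide, and the main fit held no slide term. Over all 48 genes and all comparisons, the 30 alternatives together lost 441 calls, of 28 genes, and gained 211, of 42 genes. For the 72 differences of 18 named genes and the 12 class medians alone, 2363 alternative values counted as the same. Of the others 104 lost the call, 32 gained it, 2 moved and 1 reversed. A difference counted as the same when its call did not change, even if its sign did while neither fit called it. A class median counted as the same when it shifted by less than the median SD of its genes over the control arrays, whatever its sign. All 48 genes were well above background on every array. That flag does not show how far the background correction shifts a difference.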
